A study of Mus musculus with 12 samples.

Results

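TRAV13 is a family of variable segments of the mouse T cell receptor (TCR) alpha chain, spread over the alpha and delta locus in repeated clusters. Its members here were all productive clonotypes whose best variable segment was a TRAV13 copy and whose CDR3 was read in full, in frame and free of stop codons, which is called productive here. There were 12486 such clonotypes among 163279 productive alpha (TRA) clonotypes, with 20094 of 341219 reads (5.89%). None of these 12486 clonotypes was joined to a delta segment (TRDJ), and 10 of the 13 TRAV13 copies in the RefSeq gene table had reads, of 99 TRAV copies with reads.

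An alpha chain is made when a thymocyte joins 1 TRAV segment to 1 TRAJ segment. The V segment encodes the CDR1 and CDR2 loops, which mostly touch the MHC molecule, and the joint forms CDR3, which mostly touches the peptide. Joining starts between TRAV and TRAJ segments that lie close together and can be repeated with segments farther out, so the position of a V copy and the J segments it uses are linked. In the mouse strains whose locus is duplicated, many V segments exist as an unlettered copy and as D and N copies of nearly the same sequence.

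The 12 libraries came from thymocytes of 6 mice. Each of the groups Chrna9 knockout (KO) CD4SP, wild-type (WT) CD4SP, KO CD8SP and WT CD8SP held 3 libraries, and each mouse was taken to have given the CD4SP and the CD8SP library that share its genotype and replicate number. RNA was amplified with a SMARTer mouse TCR a/b kit and read on a MiSeq. Chrna9 encodes the alpha 9 subunit of nicotinic acetylcholine receptors. The KO mice carried Chrna9-/-, and the mice formed 2 pairs of males and 1 pair of females, with strain and age not given in the sources used here. CD4 single-positive (CD4SP) cells, 1000000 in a sample, and CD8 single-positive (CD8SP) cells, 330000 in a sample, were sorted by CD4 and CD8 alone, so immature cells of either phenotype may be among them. The files hold receptor sequences only, so neither Chrna9 nor CD4 and CD8 could be checked against the labels. All comparisons use the same 12 libraries.

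Productive TRA reads per library numbered 19847 to 33885, of which 1003 to 2245 were TRAV13 reads in 737 to 1327 clonotypes. Reads carry no molecular identifiers, so intervals cover counting error only, and fewer cells with a chain cannot be told apart from less of its RNA per cell. The invariant NKT chain, which marks another cell type in the gate, made up 6.37%, 7.30% and 8.49% of productive TRA reads in the KO CD4SP libraries and 5.26%, 6.31% and 6.53% in the WT CD4SP libraries, against 0.050% to 0.098% in the 6 CD8SP libraries. The MAIT chain was at 0% to 0.030% and delta chains at 0.71% to 1.22% in every library. Because shares of TRA reads must sum to the whole, results are also given without the invariant chain where that changes a call.

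The copies fall into 4 subgroups, TRAV13-1 to TRAV13-4. TRAV13-1 and TRAV13-2 differed at 10 of 15 bases of CDR1 and at 23 of 258 bases from framework 1 to framework 3. The commonest full-length CDR1 of each copy was read from the deposited clonotype sequences and is shown because most of the subgroups differ there. Copies with the same CDR1 did not always have the same values below. Capitals mark bases that differ from TRAV13-1.
TRAV13-1, TRAV13D-1 and TRAV13N-1 CDR1: acatctttgaacagt
TRAV13-2, TRAV13D-4 and TRAV13-4-DV7 CDR1: TcCAcAGCAaCcCgG
TRAV13D-2 CDR1: TcCAcAGCAaCcCAG
TRAV13D-3 and TRAV13N-3 CDR1: acaActttgaacagt
TRAV13N-4 CDR1: aTCtTtACAaacCAG
Thus TRAV13-2 and its D copy differed by 1 base in CDR1, G14A, counted from 1 at the 5′ end of CDR1 with the TRAV13-2 base first, and by 10 of 258 bases from framework 1 to framework 3 (96.1% identity). Likewise, TRAV13-1 and TRAV13D-1 shared their CDR1 and CDR2 and were 96.1% identical over the same stretch, and TRAV13D-1 and TRAV13N-1 differed by 1 base in it.

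CDR2 was the same in all copies but those of the TRAV13-3 subgroup, whose loop is 18 bases long instead of 15. It is shown because it is the one CDR2 difference in the family.
TRAV13-1 CDR2, shared by the copies of subgroups TRAV13-1, TRAV13-2 and TRAV13-4: aatccttctgggaca
TRAV13D-3 and TRAV13N-3 CDR2: agtccttcttgggcagag

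All copies lie on chromosome 14. In the RefSeq gene table of GRCm38.p6 (mm10), which lists them as V segments without exon bounds, they span 944.6 kb, and 359 kb separate the last of them from the first TRAJ. The D cluster is the farthest from the TRAJ segments and holds TRAV13D-1 (chr14:52851355-52851866), TRAV13D-2 (chr14:52942764-52943289), TRAV13D-3 (chr14:53032902-53033419) and TRAV13D-4 (chr14:53072763-53073275). The N cluster follows with TRAV13N-1 (chr14:53162399-53162910), TRAV13N-3 (chr14:53337122-53337639) and TRAV13N-4 (chr14:53362368-53364106). The unlettered copies TRAV13-1 (chr14:53545014-53545525), TRAV13-2 (chr14:53634888-53635399) and TRAV13-4-DV7 (chr14:53757410-53757921) lie nearest to the TRAJ segments. TRAV13-4-DV7 can also be joined as a delta chain segment. TRAV13N-2, TRAV13-3 and TRAV13-5 were the best hit of no read.

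TRAV13-1 had the most reads of a copy (5127), followed by TRAV13D-2 (4383), TRAV13N-1 (3420), TRAV13-2 (2635) and TRAV13D-1 (1622). The other 5 copies had between 359 reads (TRAV13D-4) and 839 reads (TRAV13N-4). Of all TRAV13 reads, 21.7% had another copy of the same subgroup with the same score, and 5 reads were tied between subgroups. Of the TRAV13D-2 reads, 99.7% were tied with TRAV13N-2, so TRAV13D-2 below stands for both, and nearly all ties within a subgroup were these.

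The first comparison asks whether the family was used differently in the lineage selected on MHC class II (CD4SP) and that selected on class I (CD8SP). TRAV13 was a smaller part of the alpha chains in CD4SP cells. It took 5.16%, 4.80% and 5.05% of productive TRA reads in KO CD4SP and 5.03%, 5.03% and 5.05% in WT CD4SP, against 6.38%, 6.77% and 6.72% in KO CD8SP and 6.58%, 6.63% and 6.59% in WT CD8SP. Every CD4SP library lay below every CD8SP library. The log2 fold change of CD4SP over CD8SP was -0.40 (SE 0.035, adjusted p = 2.9e-16, edgeR's quasi-likelihood test with the mouse as a block), lower in 6 of 6 mice, with -0.40 in KO mice and -0.39 in WT mice. Such differences were common, as 84.1% of the 63 V families and J segments tested were called, with a median of -0.09 (85% of the 20 TRAV families alone).

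The size of the family's difference depends on scaling. With TMM factors the median of all features moved by 0.19 and TRAV13 stood at -0.21, with DESeq2 the median moved by 0.14 and TRAV13 stood at -0.26, and without the invariant chain it stood at -0.30. A scaling factor moves all features alike, so the distance of TRAV13 from the median of all features, -0.30, is the same under each by construction. TRAV13 ranked 5 of 22 families by mean share. The family whose log2 shares, centred on their mean, followed those of TRAV13 most closely over the 12 libraries was TRAV19, with a root mean square difference of 0.129, ahead of TRAV6 (0.156) and TRAV8 (0.172). The families interspersed with TRAV13 in the same repeated clusters did not all move with it. The log2 fold change of CD4SP over CD8SP was -0.76 for TRAV12 and -1.65 for TRAV16 but 0.61 for TRAV14, all called by edgeR's test.

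**Figure D1:**
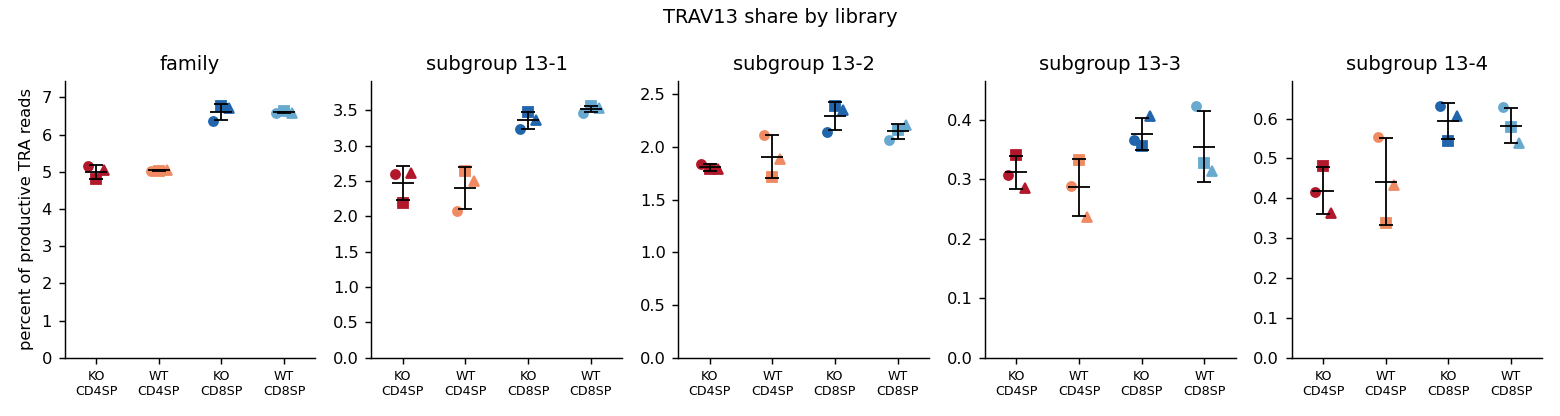
Percent of productive TRA reads taken by the TRAV13 family and by each of its 4 subgroups, by group, with 1 point for each library and marker shapes for replicate numbers. Horizontal bars are group means and error bars the SD (n = 3). The CD4SP libraries of the family sit between 4.80% and 5.16%, all below the CD8SP libraries at 6.38% to 6.77%.

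All 4 subgroups fell in CD4SP cells, where 83% of the 88 subgroups and J segments tested, and 82.2% of the 45 TRAV subgroups alone, were called. TRAV13-1, the largest, took 2.60%, 2.19% and 2.62% of productive TRA reads in KO CD4SP and 2.07%, 2.64% and 2.49% in WT CD4SP, against 3.23%, 3.48% and 3.36% in KO CD8SP and 3.47%, 3.56% and 3.53% in WT CD8SP. The cell types did not overlap, and the log2 fold change was -0.50 (SE 0.051). TRAV13-2 ranged from 1.71% to 2.12% in the 6 CD4SP libraries and from 2.07% to 2.39% in the 6 CD8SP libraries, which overlap (log2 fold change -0.26, adjusted p = 9e-05, edgeR's test). Its call was lost with DESeq2, at an adjusted p of 0.055.

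The smaller subgroups had shares under 1%. TRAV13-4 averaged 0.431% ± 0.080 in CD4SP and 0.588% ± 0.040 in CD8SP (SD, n = 6 each), a log2 fold change of -0.46 (SE 0.10). TRAV13-3 averaged 0.299% ± 0.038 in CD4SP and 0.366% ± 0.043 in CD8SP, a log2 fold change of -0.28 with an adjusted p of 0.027 by edgeR's test. That call was lost with TMM factors (-0.17), with DESeq2 (-0.16), without the invariant chain (-0.18) and without KO replicate 1 (-0.28), KO replicate 3 (-0.23) or WT replicate 1 (-0.23).

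Copies of 1 subgroup did not all move alike. As shares of productive TRA reads, 6 of the 10 copies fell in CD4SP and none rose, where 78.4% of the 125 V copies and J segments tested, and 75.6% of the 82 TRAV copies alone, were called. DESeq2 called 5 of the 10. The TRAV13-2 copy took 0.545%, 0.439% and 0.471% in KO CD4SP and 0.730%, 0.508% and 0.650% in WT CD4SP, against 0.793%, 1.09% and 1.02% in KO CD8SP and 0.820%, 0.992% and 0.985% in WT CD8SP. All CD4SP libraries lay below all CD8SP libraries, with a log2 fold change of -0.78 (SE 0.11). Its D copy, TRAV13D-2, took 1.30%, 1.35% and 1.32% in KO CD4SP and 1.39%, 1.21% and 1.24% in WT CD4SP, against 1.35%, 1.29% and 1.32% in KO CD8SP and 1.25%, 1.17% and 1.23% in WT CD8SP. These values overlap, and its log2 fold change was 0.03 (SE 0.061, adjusted p = 0.62, edgeR's test). This value depends on the setting, as it was 0.13 and called without the invariant NKT chain (adjusted p = 0.048, edgeR's test) and -0.14 without clonotypes of 1 read (adjusted p = 0.19).

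The ratio of the copies shows the same in 1 value. Log2 of TRAV13-2 over TRAV13D-2 reads was -1.25, -1.62 and -1.48 in KO CD4SP and -0.93, -1.25 and -0.93 in WT CD4SP, against -0.77, -0.24 and -0.37 in KO CD8SP and -0.60, -0.24 and -0.32 in WT CD8SP. The CD4SP and CD8SP libraries did not overlap, and the mean difference was -0.82 ± 0.41 (SD over 6 mice), lower in 6 of 6 mice. The exact two-sided sign-flip p was 0.03125, the smallest that 6 mice allow, and 0.052 adjusted over 10 measures added after the data were seen. Any measure with the same sign in all 6 mice has this exact p. Its adjusted p is then set by the other measures of its set, not by the size of its own difference. Counting clonotypes instead of reads gave a difference of -0.83, and leaving out V alignments with a deletion gave -0.88. In out-of-frame or stop reads of the same copies, which encode no receptor chain, the difference was 0.40 ± 0.77, higher in 4 of 6 mice (exact p = 0.312). That value rests on only 20 to 45 TRAV13-2 and 25 to 90 TRAV13D-2 reads in a library, which limits what it can show.

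Set against the family's own reads, TRAV13D-2 rose in CD4SP by a log2 fold change of 0.43 (SE 0.052) and TRAV13-2 fell by 0.39 (adjusted p = 0.0079, edgeR's test), where 56.6% of the 76 copies tested within their families were called. The other 8 copies did not pass the threshold in that fit. As shares of TRA reads, the 5 other copies that fell were TRAV13-1 (-0.52), TRAV13D-1 (-0.55), TRAV13N-1 (-0.45), TRAV13N-4 (-0.67) and TRAV13D-4 (-0.58). TRAV13D-4 rests on 359 reads, and its call (adjusted p = 0.023) was lost with TMM factors, with DESeq2, without the invariant chain, and in each of 5 fits that left out 1 mouse. TRAV13-4-DV7 (-0.09), TRAV13D-3 (-0.36) and TRAV13N-3 (-0.21) did not pass the threshold, but TRAV13D-3 did without KO replicate 2 (-0.45, adjusted p = 0.047 by edgeR).

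The J segments that a copy was joined to followed its cluster. TRAJ segments were grouped by number into TRAJ42 to TRAJ61, which lie nearest to the V segments, TRAJ22 to TRAJ41, and TRAJ1 to TRAJ21, which lie farthest out. The unlettered copies had TRAJ42 to TRAJ61 in 27.0% ± 3.25 of their reads, against 8.18% ± 1.31 for the D copies and 7.37% ± 1.86 for the N copies (SD, n = 12 libraries). For TRAJ1 to TRAJ21 the order was turned round, with 12.7% ± 2.02 for the unlettered copies, 47.6% ± 6.70 for the D copies and 46.4% ± 4.29 for the N copies. Each of these differences between unlettered and lettered copies had the same direction in 6 of 6 mice (exact two-sided sign-flip p = 0.03125, the smallest possible). TRAV13D-2, whose reads are tied with TRAV13N-2, makes up 4383 of the 6836 reads of the D copies, so the D and N clusters cannot be told apart here.

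Within the unlettered cluster the use of the TRAV-proximal J segments also followed position. TRAV13-4-DV7, the copy nearest to the TRAJ segments, had TRAJ42 to TRAJ61 in 68.8% of its reads (95% exact binomial interval 64.8% to 72.6%). The figure was 31.3% for TRAV13-2 and 20.1% for TRAV13-1, which lie farther out in that order. Among the lettered copies it ranged from 4.33% for TRAV13D-2 to 13.1% for TRAV13D-1, with 1 exception. TRAV13D-3, on 472 reads, stood at 27.5% (95% interval 23.6% to 31.8%), although TRAV13D-2 on one side of it and TRAV13D-4 (6.96%) on the other were low. Only 147 of the 296 TRAV13D-3 clonotypes counted as full length, against 413 of 420 for TRAV13N-3. Reads assigned to TRAV13D-3 may thus not all carry its usual V sequence, which was not tested.

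**Figure D2:**
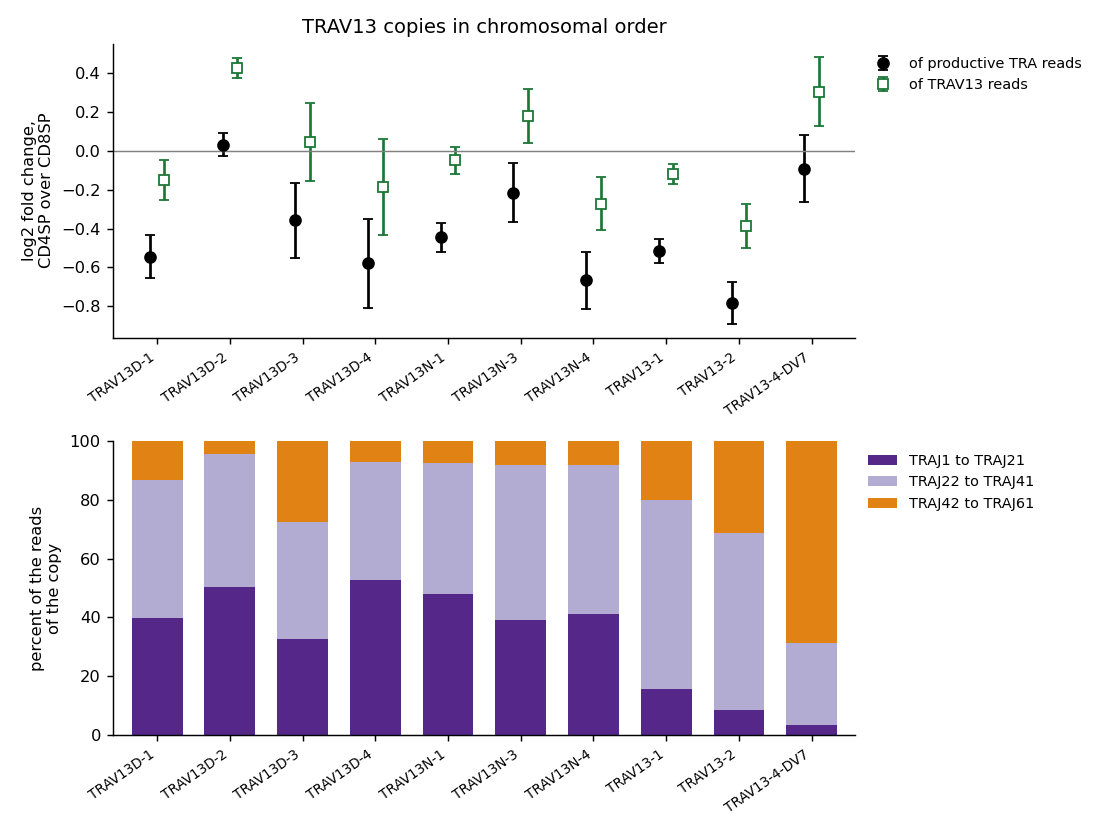
The 10 TRAV13 copies with reads, in chromosomal order with the copy nearest to the TRAJ segments on the right. Upper panel, log2 fold change of CD4SP over CD8SP as a share of all productive TRA reads (filled circles) or of TRAV13 reads (open squares), with bars of 1 SE. Lower panel, percent of each copy's reads joined to each of 3 TRAJ groups over all libraries, where TRAV13-4-DV7 reaches 68.8% for TRAJ42 to TRAJ61 and TRAV13D-2 has 4.33%.

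The cell types also differed in the J segments of single copies. TRAV13D-2, whose total share overlapped between the cell types, had TRAJ1 to TRAJ21 in 58.0% ± 3.60 of its CD4SP reads and 43.8% ± 4.47 of its CD8SP reads (SD, n = 6 each). TRAV13-1 had those segments in 16.5% ± 2.76 of CD4SP and 14.8% ± 1.83 of CD8SP reads. For TRAJ42 to TRAJ61 the unlettered copies differed in direction, with 38.2% ± 4.62 in CD4SP and 28.0% ± 3.70 in CD8SP for TRAV13-2, but 16.6% ± 3.41 in CD4SP and 22.2% ± 1.58 in CD8SP for TRAV13-1. These copy values were not tested.

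Over the whole family, CD4SP reads used the outermost J segments more and the middle ones less. TRAJ1 to TRAJ21 averaged 37.0% ± 1.36 of TRAV13 reads in CD4SP and 29.3% ± 1.13 in CD8SP (SD, n = 6 each), and TRAJ22 to TRAJ41 averaged 47.9% ± 1.77 in CD4SP and 54.4% ± 1.84 in CD8SP. Neither pair of groups overlapped, and both differences held in 6 of 6 mice (exact sign-flip p = 0.03125, 0.043 adjusted over 11 measures). TRAJ42 to TRAJ61 averaged 15.1% ± 1.902 in CD4SP and 16.2% ± 0.891 in CD8SP (exact p = 0.125). In the other TRAV families TRAJ1 to TRAJ21 differed by 6.57 percentage points, but by 2.05 without the invariant NKT chain, which itself uses TRAJ18. Against the other families without that chain, TRAV13 gained a further 5.58 ± 2.13 points of TRAJ1 to TRAJ21 in CD4SP, in 6 of 6 mice (exact p = 0.03125, adjusted 0.042). With that chain kept, the further difference was 1.06 points (exact p = 0.312).

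Of the 43 TRAJ segments found with TRAV13, 42 passed the filter on low counts, and 19 of them passed the threshold of an adjusted p of 0.05 between the cell types, where 44.9% of all 454 pairs of a V family and a J segment did. In CD4SP 13 rose and 6 fell, with a median of 0.23 over the 42 and 0.06 over all pairs. TRAJ49 fell most, at 1.76%, 1.02% and 1.499% of TRAV13 reads in KO CD4SP and 1.78%, 1.29% and 1.40% in WT CD4SP, against 4.48%, 4.67% and 4.01% in KO CD8SP and 3.83%, 4.68% and 4.39% in WT CD8SP. No library of one cell type reached those of the other, and the log2 fold change was -1.58 (SE 0.19).

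TRAJ26 behaved the same way, with 2.45%, 2.78% and 2.33% in KO CD4SP and 2.60%, 2.51% and 2.69% in WT CD4SP, against 8.39%, 7.91% and 7.54% in KO CD8SP and 6.62%, 5.97% and 6.98% in WT CD8SP (log2 fold change -1.50, SE 0.15). TRAJ22 took 4.87% to 6.08% in CD4SP and 9.47% to 10.7% in CD8SP (log2 fold change -0.91). The other segments that fell were TRAJ45 (-1.38), TRAJ30 (-0.72) and TRAJ33 (-0.71), and the CD4SP and CD8SP libraries of TRAJ45 and TRAJ30 did not overlap either.

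TRAJ6 rose most, at 3.204%, 3.59% and 4.496% in KO CD4SP and 3.57%, 3.40% and 4.09% in WT CD4SP, against 0.754%, 2.15% and 1.96% in KO CD8SP and 1.04%, 1.07% and 1.20% in WT CD8SP. The cell types did not overlap, and the log2 fold change was 1.48 (SE 0.21). TRAJ12 took 3.89% to 6.63% in CD4SP and 2.52% to 3.57% in CD8SP (log2 fold change 0.85). TRAJ39 (0.84), TRAJ18 (0.91), TRAJ42 (0.81), TRAJ37 (0.69), TRAJ43 (0.64) and TRAJ4 (0.60) rose as well, and the other 5 that rose had log2 fold changes of 0.35 to 1.06.

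**Figure D3:**
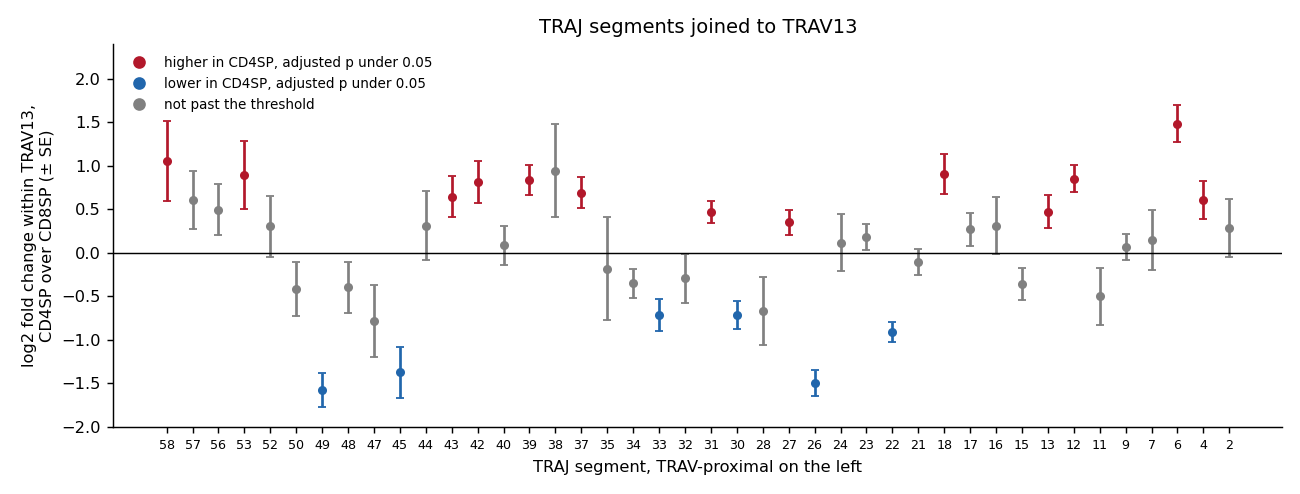
Log2 fold change of CD4SP over CD8SP for each of 42 TRAJ segments as a share of TRAV13 reads, with bars of 1 SE, from the TRAV-proximal segments on the left to the outermost on the right. Red marks the 13 segments that rose in CD4SP and blue the 6 that fell at an adjusted p under 0.05 (edgeR's quasi-likelihood test), with TRAJ49 at -1.58 and TRAJ6 at 1.48.

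An interaction fit asked which of these differences were unlike those in the other TRAV families. It called 12 of the 43 TRAJ segments (27.9% of those tested), 6 with a higher and 6 with a lower CD4SP over CD8SP difference in TRAV13. TRAJ12 (0.99), TRAJ6 (0.97), TRAJ4 (0.82) and TRAJ39 (0.60) were further towards CD4SP in TRAV13, and TRAJ49 (-1.16), TRAJ26 (-0.70) and TRAJ22 (-0.34) further towards CD8SP. Named after their values were seen, TRAJ38 (1.67) and TRAJ9 (0.54) were called higher and TRAJ15 (-0.81) and TRAJ34 (-0.63) lower. TRAJ18 was called at -1.40, but without the invariant NKT chain in the other families it stood at 0.61 with an adjusted p of 0.057, and TRAJ39 also lost its call (adjusted p = 0.071).

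CDR3 loops on TRAV13 carried more positive charge in CD4SP cells. Net charge per CDR3, counted as lysine and arginine minus aspartate and glutamate and weighted by reads, was 0.580, 0.564 and 0.545 in KO CD4SP and 0.560, 0.572 and 0.548 in WT CD4SP, against 0.080, 0.083 and 0.096 in KO CD8SP and 0.119, 0.154 and 0.118 in WT CD8SP. The gap between the cell types was many times the spread within them, at 0.453 ± 0.032 (SD over 6 mice), in 6 of 6 mice (exact sign-flip p = 0.03125, adjusted 0.043). In the other TRAV families net charge averaged 0.811 ± 0.010 in CD4SP and 0.488 ± 0.007 in CD8SP, a gap of 0.323. The gap in TRAV13 was thus wider by 0.1302 in 6 of 6 mice (exact p = 0.03125, adjusted 0.062), and by 0.144 without the invariant NKT chain (adjusted 0.042).

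**Figure D4:**
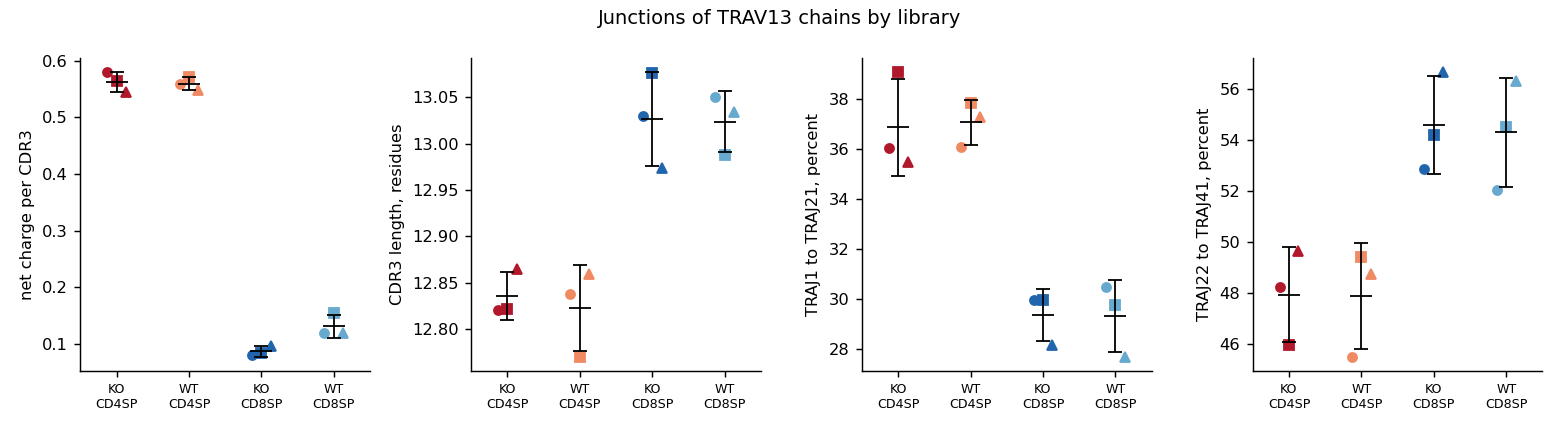
Net charge per CDR3, mean CDR3 length in residues, and the percent of TRAV13 reads joined to TRAJ1 to TRAJ21 and to TRAJ22 to TRAJ41, by group, with 1 point for each library, the mean and the SD (n = 3). The axes do not start at 0. Net charge lies between 0.545 and 0.580 in the CD4SP libraries and between 0.080 and 0.154 in the CD8SP libraries.

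The charge difference was not shared by every subgroup, which was noticed after the values were seen. Net charge of TRAV13-1 chains averaged 0.561 ± 0.063 in CD4SP and 0.088 ± 0.044 in CD8SP, and that of TRAV13-2 chains 0.584 ± 0.053 in CD4SP and 0.063 ± 0.046 in CD8SP (SD, n = 6 each). TRAV13-4 chains averaged 0.532 ± 0.174 in CD4SP and 0.162 ± 0.043 in CD8SP. In TRAV13-3, the subgroup with the longer CDR2, the means were 0.446 ± 0.134 in CD4SP and 0.487 ± 0.119 in CD8SP, higher in CD4SP in 3 of 6 mice. Since TRAV13-3 was singled out for these values, its difference from the other subgroups is given as a description without a test.

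The same held for both copies of that subgroup, with 0.534 in CD4SP and 0.528 in CD8SP for TRAV13D-3 and 0.401 in CD4SP and 0.450 in CD8SP for TRAV13N-3. By contrast TRAV13D-2 averaged 0.579 ± 0.066 in CD4SP and 0.021 ± 0.075 in CD8SP, although its share of TRA reads overlapped between the cell types. TRAV13-3 rests on 468 CD4SP and 677 CD8SP reads, fewer in each cell type than TRAV13-1 or TRAV13-2. Of the 296 TRAV13D-3 clonotypes, only 147 counted as full length.

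Residues 6 and 7 of CDR3, near the middle of the loop, had a mean Kyte-Doolittle hydropathy of -1.28 ± 0.027 in CD4SP and -1.35 ± 0.024 in CD8SP (SD, n = 6 each), higher in CD4SP in 6 of 6 mice (exact p = 0.03125, adjusted 0.043). The other TRAV families went the opposite way, with -1.41 ± 0.012 in CD4SP and -1.23 ± 0.014 in CD8SP. The difference of TRAV13 exceeded theirs by 0.249 in 6 of 6 mice (exact p = 0.03125, adjusted 0.062), and by 0.170 without the invariant NKT chain (adjusted 0.042). With each clonotype counted once, the difference within TRAV13 was 0.058 and its adjusted p was 0.080.

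TRAV13 loops were also slightly shorter in CD4SP, at 12.8 ± 0.034 residues against 13.03 ± 0.038 in CD8SP (exact p = 0.03125, adjusted 0.043). The other TRAV families differed by -0.081 residues, and by -0.200 without the invariant NKT chain. Reads without added nucleotides between V and J, which come from joins without N additions, made up 32.3% ± 1.92 in CD4SP and 31.7% ± 1.95 in CD8SP, which overlap (exact p = 0.50). A TRAV13 clonotype had 1.46 ± 0.077 reads on average in CD4SP and 1.72 ± 0.046 in CD8SP, and these groups did not overlap (exact p = 0.03125, adjusted 0.043). The other TRAV families differed in the same direction, with 1.95 ± 0.079 in CD4SP and 2.30 ± 0.073 in CD8SP, and the sorts held different numbers of cells. The 10 largest clonotypes held 4.73% ± 0.676 of TRAV13 reads in CD4SP and 3.79% ± 0.478 in CD8SP (exact p = 0.094). Without clonotypes of 1 read they held 8.96% ± 1.65 in CD4SP and 5.59% ± 0.719 in CD8SP, higher in 6 of 6 mice (exact p = 0.03125, adjusted 0.043). Out-of-frame or stop reads were 15.1% ± 0.981 of the family's reads in CD4SP and 12.99% ± 0.621 in CD8SP, without overlap (exact p = 0.03125, adjusted 0.043). In all, 8 of the 11 measures passed an adjusted p of 0.05 between the cell types, each at the smallest exact p that 6 mice allow.

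Single chains shared between mice were rare. The family held 8575 clonotypes by CDR3 residues, subgroup and J segment, of which 7012 (81.8%) were found in 1 library, 102 in at least 6 and none in all 12. Clonotypes of 1 read were 60.5% of TRAV13 nucleotide clonotypes and 49.5% of those on other V segments. Only 5 clonotypes passed the filter on low counts, which a clonotype high in 1 cell type passes more easily. They are shown by the commonest nucleotide CDR3, in which capitals mark the bases aligned to the V segment.
Clonotype A, TRAV13-1 with TRAJ31: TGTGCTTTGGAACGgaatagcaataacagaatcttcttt
Clonotype B, TRAV13-1 with TRAJ33: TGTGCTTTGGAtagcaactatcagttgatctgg
Clonotype C, TRAV13-1 with TRAJ39: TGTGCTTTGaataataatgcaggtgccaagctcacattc
Clonotype D, TRAV13-2 subgroup with TRAJ23, read from TRAV13D-2: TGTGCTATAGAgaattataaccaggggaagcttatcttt
Clonotype E, TRAV13-2 subgroup with TRAJ34: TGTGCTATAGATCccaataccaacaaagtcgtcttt
None of these 5 main forms had added bases between V and J, and each clonotype was encoded by 2 to 6 nucleotide forms.

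Clonotype C had 10, 7 and 15 reads in KO CD4SP and 7, 16 and 9 in WT CD4SP, against 0, 0 and 0 in KO CD8SP and 3, 1 and 0 in WT CD8SP. It was thus found in all 6 CD4SP libraries and in 2 CD8SP libraries. Clonotype E went the other way, with 3, 3 and 0 reads in KO CD4SP and 1, 3 and 0 in WT CD4SP, against 10, 20 and 12 in KO CD8SP and 10, 15 and 11 in WT CD8SP. Its CD4SP and CD8SP libraries did not overlap. Clonotype D had 4 reads in 1 KO CD4SP library and none in the other CD4SP libraries, against 0, 2 and 12 in KO CD8SP and 8, 4 and 11 in WT CD8SP. Clonotype A had 11, 9 and 12 reads in KO CD4SP and 8, 10 and 3 in WT CD4SP, against 7, 11 and 5 in KO CD8SP and 0, 0 and 6 in WT CD8SP, which overlap. Of the 337 clonotypes of all V segments past the filter, 59.6% were called between the cell types. Clonotypes C, D and E passed it through the cell type in which they are high, so their levels are a description and no test is given for them.

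The second comparison sets KO against WT mice within each cell type. No member passed the threshold for KO over WT in either cell type. The log2 fold change of the family was -0.01 (SE 0.052, adjusted p = 0.96, edgeR's test) in CD4SP and 0.00 (SE 0.049, adjusted p = 0.99) in CD8SP, and the difference between these effects was -0.01 (SE 0.070, adjusted p = 0.97). By group the shares were 5.00% ± 0.188 in KO CD4SP and 5.04% ± 0.015 in WT CD4SP, and 6.62% ± 0.213 in KO CD8SP and 6.60% ± 0.022 in WT CD8SP (SD, n = 3 each). Within a cell type the genotype means differ by less than the SD of the KO libraries, but in CD4SP by more than that of the WT libraries. The background was low as well, since 3.17% of the 63 families and J segments (5% of the TRAV families) were called in CD4SP, and 0% in CD8SP or for the difference between the effects.

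Among the 4 subgroups edgeR called 0 in either cell type, with 0 at an unadjusted p under 0.05 and 0 by DESeq2, where 2.27% of all subgroups and J segments (2.22% of the TRAV subgroups) were called in CD4SP and 0% in CD8SP. Their log2 fold changes of KO over WT ran from -0.08 (TRAV13-2) to 0.12 (TRAV13-3) in CD4SP and from -0.07 (TRAV13-1) to 0.10 (TRAV13-3) in CD8SP. Among the 10 copies edgeR and DESeq2 called 0 in either cell type, where 1.6% of V copies and J segments (1.22% of the TRAV copies) were called in CD4SP and 0% in CD8SP. At an unadjusted edgeR p under 0.05 there was 1 copy in each cell type, against 7 of the 125 V copies and J segments in CD4SP and 6 in CD8SP. In CD4SP it was TRAV13-2, whose shares given above are lower in KO in all 3 pairs (log2 fold change -0.37, SE 0.15, adjusted p = 0.32). Without WT CD4SP replicate 2 its value was -0.54 with an adjusted p of 0.038. In CD8SP it was TRAV13N-1, at 1.02%, 1.06% and 1.07% in KO CD8SP and 1.23%, 1.30% and 1.18% in WT CD8SP, which do not overlap (log2 fold change -0.24, SE 0.11, adjusted p = 0.80).

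The log2 ratio of TRAV13-2 over TRAV13D-2 in CD4SP was -1.45 ± 0.186 in KO and -1.04 ± 0.185 in WT (SD, n = 3 each), lower in KO in 3 of 3 pairs and without overlap. With 3 pairs the exact sign-flip p cannot go below 0.25, which it reached, and the exact permutation of labels gave 0.10, its smallest value. In CD8SP the ratio was -0.46 ± 0.274 in KO and -0.39 ± 0.192 in WT.

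Of the TRAJ segments within TRAV13, edgeR called 0 of 42 for genotype in either cell type, where 0% of all V and J pairs were called in CD4SP and 0.22% in CD8SP. At an unadjusted edgeR p under 0.05 there were 0 in CD4SP and 1 in CD8SP, against 27 and 18 of all 454 pairs. DESeq2, run on the TRAV13 pairs alone and so adjusted over fewer tests, called 0 and 1. That 1 was TRAJ9, at 3.82%, 3.98% and 3.15% in KO CD8SP and 5.97%, 5.26% and 5.09% in WT CD8SP, without overlap (log2 fold change -0.57, SE 0.19, adjusted p = 0.54 over all pairs by edgeR, and 0.046 by DESeq2 over the TRAV13 pairs alone). In CD4SP its values were 4.90%, 5.42% and 4.66% in KO and 3.57%, 4.93% and 4.49% in WT, which overlap. The segments with the next smallest p in CD8SP were TRAJ48 (-0.66), TRAJ32 (-0.62), TRAJ6 (0.54) and TRAJ26 (0.28). In CD4SP they were TRAJ50 (0.89, adjusted p = 0.80), TRAJ4 (0.54), TRAJ37 (0.41), TRAJ56 (-0.57) and TRAJ16 (-0.69). None of the 5 clonotypes was called for genotype by edgeR or DESeq2, and none had an unadjusted edgeR p under 0.05, with 0% called among all clonotypes tested.

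None of the 11 measures could reach an exact p under 0.25 with 3 pairs, and 0 passed an adjusted p of 0.05. Groups did not overlap in 1 measure in each cell type. With 3 libraries against 3, a share of 0.1 of all labellings separates the values fully, so 1 of 11 measures is near that share. In CD4SP, reads without added nucleotides averaged 33.7% ± 1.42 in KO and 31.0% ± 1.41 in WT (exact p = 0.25 in pairs). In CD8SP, net charge averaged 0.086 ± 0.009 in KO and 0.1305 ± 0.020 in WT (exact p = 0.25 in pairs), while in CD4SP it averaged 0.563 ± 0.018 in KO and 0.560 ± 0.012 in WT.

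Many TRAV13 chains lacked V bases from the start of framework 1 on. In 1920 clonotypes with 2329 reads (11.6% of TRAV13 reads), the V alignment lacked a run of at least 30 bases, against 0.72% of reads on other TRAV families. The next families were TRAV15, at 7.87% of 343 reads, and TRAV14, at 2.63%. Within a copy the run mostly had the same ends, with 85 bases in 1178 reads and 92 bases in 782 reads over the family, and with 94 bases in 82% of the 300 TRAV13N-4 reads that lacked one. Neither number is a multiple of 3, and these chains were productive by their CDR3 alone. The start of framework 1 to framework 2 is shown for 3 copies, with the missing bases in lower case and the retained ones in capitals.
TRAV13-1, 92 bases missing: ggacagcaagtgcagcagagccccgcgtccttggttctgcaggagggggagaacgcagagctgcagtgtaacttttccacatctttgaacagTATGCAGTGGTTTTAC
TRAV13-2, 85 bases missing: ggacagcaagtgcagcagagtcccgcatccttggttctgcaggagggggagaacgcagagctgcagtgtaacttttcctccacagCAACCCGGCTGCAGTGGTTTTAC
TRAV13N-4, 94 bases missing: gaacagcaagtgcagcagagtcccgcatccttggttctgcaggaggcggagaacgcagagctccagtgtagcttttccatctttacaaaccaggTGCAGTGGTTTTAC
The missing run ended within CDR1 in TRAV13-1 and TRAV13-2 and at the first base past it in TRAV13N-4, and its last 3 bases were CAG, CAG and AGG. The deposited sequences begin at framework 1, so how far the gap reached upstream is not shown.

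The copies differed widely in this deletion. It was found in 35.8% of productive TRAV13N-4 reads (95% exact binomial interval 32.5% to 39.1%), 25.4% of TRAV13-4-DV7, 20.5% of TRAV13-2, 12.5% of TRAV13-1 and 11.02% of TRAV13D-2 reads. Near-identical partners had less, with 4.93% in TRAV13D-1 and 2.95% in TRAV13N-1, and the TRAV13-3 subgroup had almost none, with 3 reads of TRAV13D-3 and 1 of TRAV13N-3. In out-of-frame or stop reads the share was 64.7% for TRAV13-1 (60.7% to 68.5%) and 23.7% for each of TRAV13D-1 and TRAV13N-1, above their productive shares, while for TRAV13D-2 it was 9.96% (7.81% to 12.5%). Of the 1920 clonotypes with the deletion, 152 (7.92%) had the same copy, J segment and CDR3 also at full length in the same library.

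Over the family the deletion was more frequent in CD4SP reads, though its adjusted p, which the other added measures set, did not pass the threshold. It was found in 14.1%, 12.7% and 12.4% of TRAV13 reads in KO CD4SP and 15.2%, 12.7% and 13.4% in WT CD4SP, against 9.99%, 9.79% and 11.1% in KO CD8SP and 10.7%, 10.2% and 10.96% in WT CD8SP. The cell types did not overlap, with a difference of 2.98 ± 1.18 percentage points in 6 of 6 mice (exact sign-flip p = 0.03125, 0.052 adjusted over the 10 added measures). Without these clonotypes the family's log2 fold change of CD4SP over CD8SP was -0.45, against -0.40 with them. Over the family the genotypes overlapped in both cell types. In CD8SP the deletion took 18.7% to 20.7% of TRAV13-2 reads in KO and 15.1% to 17.3% in WT. For TRAV13D-2 the direction was opposite, with 6.22% to 8.89% in KO and 9.25% to 10.8% in WT. TRAV13-1 and TRAV13N-4 overlapped between the genotypes there, and all of these copies overlapped in CD4SP. These copy values are a description of 3 libraries in each group.

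**Figure D5:**
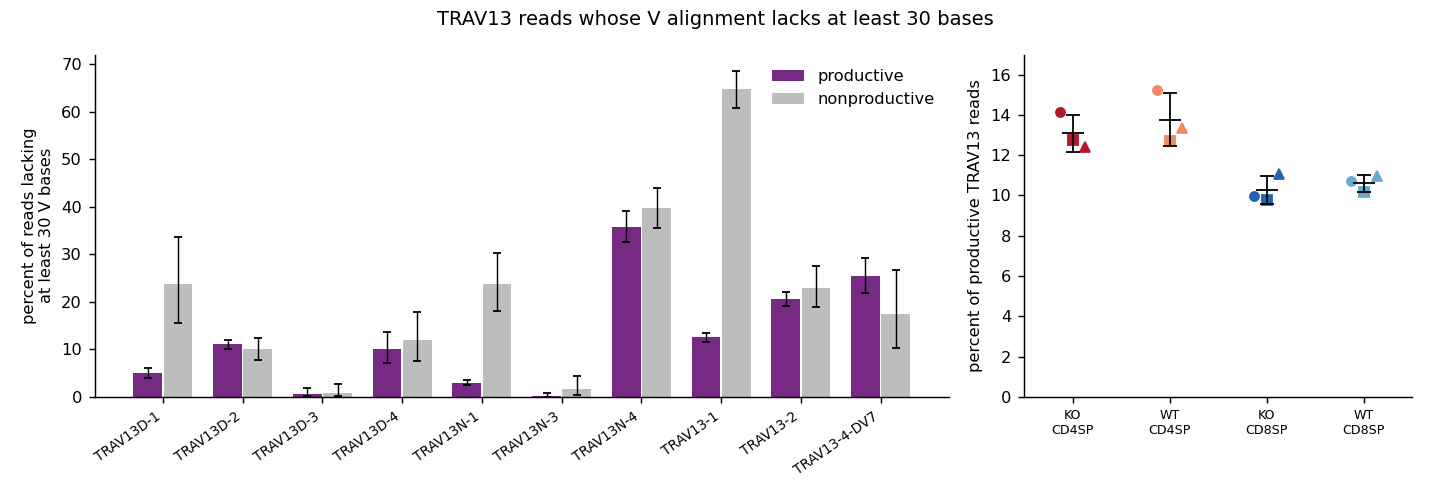
Left, percent of each copy's reads whose V alignment lacks at least 30 bases, in productive and in nonproductive (out-of-frame or stop) reads over all libraries, with 95% exact binomial intervals that cover counting error only. TRAV13-1 stands at 12.5% of productive and 64.7% of nonproductive reads. Right, the percent of productive TRAV13 reads by group, with 1 point for each library, the mean and the SD (n = 3), where the CD4SP libraries lie at 12.4% to 15.2% and the CD8SP libraries at 9.79% to 11.1%.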

How the data were processed

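The TCR alpha and delta clonotype tables of 12 libraries were used. The authors deposited, for each clonotype, a read count and the fraction of all reads it makes up, made with MiXCR per the series' design text. Version and filters are not given in the sources used here, and the submitters' processing notes name mm10. Each deposited fraction equalled its count over the total. Reads of productive clonotypes were summed by best V copy, subgroup, family and TRAJ; TCR beta tables were not used. Coordinates came from RefSeq.

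Counts were tested with edgeR 4.0.16 (R 4.3.3, quasi-likelihood test, library totals as offsets, filterByExpr, Benjamini-Hochberg over each whole table, threshold 0.05). The pairs of mice that the design text names entered as a block, and the same-numbered KO and WT libraries correlated at 0.42, -0.04 and 0.16 in CD4SP and 0.23, 0.0025 and 0.20 in CD8SP. CD4SP and CD8SP libraries of a mouse, blocked by mouse, correlated at -0.34 to 0.097. Single measures had exact two-sided sign-flip tests over mice (scipy 1.17.1). DESeq2 1.42.0, limma 3.58.1, TMM factors, other filters, clonotypes counted once and leaving out replicates were alternatives. Simulated counts were used to test edgeR's CD4SP over CD8SP fit alone, on V copies and on V and J pairs without family totals as offsets. The genotype fits and the other fits were not tested in this way. The named TRAJ segments were at most 8 in each direction past the threshold with a mean share of at least 1% of TRAV13 reads, and for genotype the 5 of smallest p. Members and lists were chosen with earlier results of these data known. For CD4SP over CD8SP, p-values rest on differences within each mouse. For genotype, the block of edgeR's fit was the pair and not the mouse. Its genotype p-values therefore do not measure the spread between mice alone. No p-value reaches beyond these mice. Figures used matplotlib 3.10.9.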

Additional observations from a re-analysis of the deposited data

Results flagged for a closer look

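Reads whose V alignment lacked at least 30 bases made up 11.6% of TRAV13 reads, a signal outside the usage counts and above the 0.72% of the other TRAV families.

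TRAV13 took 11.3% of nonproductive TRA reads, against 5.89% of productive ones. By library it averaged 10.9% ± 0.795 in CD4SP and 11.6% ± 0.633 in CD8SP (SD, n = 6 each), which overlap (exact sign-flip p = 0.25).

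A V sequence unlike that of the copy it was assigned to was found in 86 productive reads of 56 clonotypes, 85 of them assigned to TRAV13D-2, and in all 12 libraries with 1 to 15 reads each. It is shown by its loops, in lower case.
Unnamed V sequence CDR1: atctctacaaaccag
Unnamed V sequence CDR2: attcctggaatg
Outside CDR2 it differed from TRAV13D-2 at 31 of 243 bases. TRAJ42 to TRAJ61 made up 51.2% of its reads, against 3.40% of the other TRAV13D-2 reads. It had 18 reads in KO CD4SP, 16 in WT CD4SP, 27 in KO CD8SP and 25 in WT CD8SP.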

How the results depend on the processing

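The family's CD4SP over CD8SP difference was called under every alternative, between -0.54 (without clonotypes of 1 read) and -0.21 (TMM factors). Genotype values near 0 changed sign without a call. For KO over WT in CD4SP the family stood at 0.077 without clonotypes of 1 read, 0.011 without the invariant NKT chain, 0.00081 without clonotypes with a V deletion and 0.010 with DESeq2, and the difference between the genotype effects at 0.073 without clonotypes of 1 read and 0.0079 without the invariant chain. TRAV13-2 stood at 0.084 in CD4SP without clonotypes of 1 read. With each clonotype counted once, TRAV13-4 stood at 0.068 in CD4SP, -0.050 in CD8SP and 0.13 for the difference. For CD4SP over CD8SP, TRAV13D-2 stood at -0.14 without clonotypes of 1 read, -0.042 without V deletions and 0.13 (called, adjusted p = 0.048 by edgeR) without the invariant chain, and TRAV13-4-DV7 at 0.0072 without the invariant chain and 0.017 with DESeq2.

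Leaving out 1 replicate in turn, KO over WT ran from -0.044 to 0.028 for the family in CD4SP, -0.022 to 0.037 in CD8SP and -0.064 to 0.034 for the difference between them. In CD4SP it ran from -0.063 to 0.16 for TRAV13-1, -0.16 to 0.029 for TRAV13-2 and -0.25 to 0.11 for TRAV13-4. In CD8SP it ran from -0.042 to 0.24 for TRAV13-3 and -0.045 to 0.071 for TRAV13-4. The difference ran from -0.098 to 0.22 for TRAV13-3 and -0.25 to 0.054 for TRAV13-4.

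DESeq2 called 2 subgroups between the cell types and 1 TRAJ segment for genotype in CD8SP, the latter adjusted over the TRAV13 pairs alone. With no filter but 10 reads in all, 5 TRAV13 clonotypes were called between the cell types, against 3 of the 5 that passed the main filter. The main filter favours clonotypes high in 1 cell type, so the 3 calls cannot serve as a test of these clonotypes. The number tested without that filter is not given here, so no conclusion is drawn from either count. With each clonotype counted once, which leaves no clonotype test, 7 TRAJ segments differed from the other families. Without the replicate block the family stood at -0.01 in CD4SP and 0.00 in CD8SP for KO over WT and at -0.40 for CD4SP over CD8SP. No call on the family, a subgroup or a copy changed. Within TRAV13, 20 TRAJ segments were called, against 19 with the block, where 44.9% of all 454 pairs were called. Shares of all features called under the other settings are not given here, so the counts under those settings have no background beside them. Of the CDR3 measures, with each clonotype counted once the TRAJ42 to TRAJ61 difference passed (-1.57 points, exact test, adjusted p = 0.047) and the out-of-frame difference did not (1.15 points, adjusted p = 0.105, exact test). Without clonotypes of 1 read the out-of-frame difference did not pass (1.73 points, adjusted p = 0.115, exact test) and that of the 10 largest clonotypes did (3.37 points, adjusted p = 0.043, exact test). The cause of these changes was not tested. Depth limits the copies with under 1000 reads and single clonotypes most.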

Other observations

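The shares that followed TRAV13 most closely belonged to families of other sizes. TRAV19 averaged 0.891% ± 0.086 in CD4SP and 1.26% ± 0.090 in CD8SP, TRAV6 16.2% ± 0.499 in CD4SP and 17.3% ± 0.508 in CD8SP, and TRAV8 1.61% ± 0.141 in CD4SP and 2.52% ± 0.184 in CD8SP (SD, n = 6 each). These 3 were the closest of 16 families, as a description without a test.

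TRAV13-4-DV7 had the widest gap in mean CDR3 charge of the 10 copies, with 0.672 ± 0.117 in CD4SP and 0.038 ± 0.154 in CD8SP (SD, n = 6 each), although its share of TRA reads did not pass the threshold between the cell types. TRAV13N-4, of the same subgroup, averaged 0.358 ± 0.206 in CD4SP and 0.196 ± 0.093 in CD8SP. These copy values were not tested.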
